A study of Mus musculus with 16 samples.

Results

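Oct4 sites bound at day 5 only were defined from the 3 Oct4 ChIP-seq libraries of Oct4-SK cells, which were collected at days 1, 5 and 7 of reprogramming. Summits of the 3 lists were joined whenever the next summit lay within 100 bp, and a site was kept when it held a day 5 summit and no summit of day 1 or day 7. This gave 2410 sites of 13115 merged Oct4 sites on chromosomes 1 to 19, X and Y. They were compared with 5891 sites bound at day 1 only, 2113 sites bound at day 7 only and 2436 sites bound at day 5 and on another day. The sites were selected on the presence or absence of a summit in these 3 lists, so their absence at days 1 and 7 and their day 5 scores are given as a description, and comparisons were made on sequence, location and the other 10 libraries.

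Oct4 is a POU transcription factor that pairs with Sox2 on the composite SoxOct motif, the arrangement used at many enhancers of pluripotent cells. It can also bind alone to the octamer, or as a pair of POU proteins on the palindromic MORE motif, a mode typical of other POU factors such as Oct6 (Pou3f1). It is among the factors used to convert fibroblasts into induced pluripotent stem cells. AP-1, a dimer of Fos and Jun proteins, is the leading factor family at fibroblast enhancers, and CpG-rich promoters drive most housekeeping genes.

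All cells were OG2 MEFs, mouse embryonic fibroblasts with a GFP reporter under the Oct4 promoter, that received retroviral Sox2 and Klf4 (SK) and 1 POU factor, and were then grown in the chemically defined iCD1 medium, with day 0 as the day of the medium change. The POU factor was wild-type Oct4, Oct6, Oct4defSox2 (an Oct4 engineered to impair pairing with Sox2 on SoxOct DNA), Oct4 S151M or Oct6 M151S, the last pair each with 1 amino acid exchanged. Beside the 3 Oct4 libraries there were 10 others. They were Oct4defSox2 at days 1 and 5, Oct4 S151M and Oct6 M151S at day 1, and 6 Sox2 libraries, from days 1 and 5 of the cells given Oct4, Oct6 or Oct4defSox2 with SK. The labels of Oct6 M151S give day 1 in its title and day 2 elsewhere, and the title was followed. Each group was 1 library, without replicate, so no p-value was computed. The ranges in parentheses are 95% intervals (Wilson for a share, Newcombe for a difference of shares in percentage points). They cover counting error among sites and not variation between cultures.

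The Oct4 libraries held 8216, 4854 and 3638 summits at days 1, 5 and 7. The other lists ran from 1038 summits (Oct4defSox2, day 5) to 101170 (Oct4 S151M, day 1), and a longer list has more chances to cover any site. Summits carry a MACS2 score, the p-value as −log10, which depends on library depth, so scores are not compared between libraries. The lowest score was 4.00 to 4.12 in 12 of the 13 libraries, but 2.30 in Oct6 M151S, whose threshold was therefore looser. The day 7 Oct4 library was read with shorter reads than the others, so absence at day 7 and read length cannot be told apart.

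The day 5 score of the 2410 sites had a median of 7.29 and ran from 4.10 to 55.8, whereas the 2436 day 5 sites seen on another day had a median of 12.8 and reached 285.1. The day 5 only sites were thus mostly the weaker summits of their library. Day 5 scores were split into 4 bins at their quartiles (6.61, 9.58 and 14.5). Of all day 5 sites in bin 1, with the lowest scores, 80.4% were bound at day 5 only, against 14.6% in bin 4. A summit of day 1 or day 7 lay 101 to 150 bp away, just outside the rule, at 105 of the sites, with day 5 scores of 4.16 to 24.8 and a median of 7.00. Just inside it, 427 day 5 summits were joined across 51 to 100 bp and had a median score of 9.46. At 1918 sites (79.6%) the nearest summit of day 1 or 7 was more than 10 kb away. The 5 lowest members scored 4.10, 4.12, 4.12, 4.12 and 4.12.

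The following windows show the sequence at the sites on which the description turns, printed 5′ to 3′ from the plus strand of mm10 (GRCm38), 100 bp to each side of the summit, with the SoxOct, MORE, octamer or AP-1 match in capitals. They are the highest scored site of all (Cryba2), the highest with a SoxOct match (Frk, matched on the minus strand), the highest with a MORE match (Atp2b4), the octamer at the Jund promoter, 1 of the 3 sites occupied in 8 of the other 10 libraries (Plcb1, with an AP-1 match), and the highest scored site found in no other library (Smyd3), where none of these motifs was matched. Repeats covered 65.7% of the Atp2b4 window, whose MORE match has 1 mismatch. Sites are called by the gene with the nearest protein-coding start in GENCODE M21.
Cryba2, chr1:74893184-74893384: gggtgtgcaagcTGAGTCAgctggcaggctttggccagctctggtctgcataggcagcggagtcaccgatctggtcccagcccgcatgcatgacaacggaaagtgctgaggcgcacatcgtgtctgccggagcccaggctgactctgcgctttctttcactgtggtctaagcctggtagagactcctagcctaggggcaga
Frk, chr10:35090984-35091184: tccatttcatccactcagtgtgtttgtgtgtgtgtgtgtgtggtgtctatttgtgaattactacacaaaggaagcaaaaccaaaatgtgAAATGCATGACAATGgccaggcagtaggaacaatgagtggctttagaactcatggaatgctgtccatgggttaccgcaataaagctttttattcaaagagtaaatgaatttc
Atp2b4, chr1:133779324-133779524: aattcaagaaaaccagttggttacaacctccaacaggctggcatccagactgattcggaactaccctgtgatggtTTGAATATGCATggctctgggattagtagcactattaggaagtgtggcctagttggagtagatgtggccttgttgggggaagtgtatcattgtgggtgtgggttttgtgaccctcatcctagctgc
Jund, chr8:70698720-70698920: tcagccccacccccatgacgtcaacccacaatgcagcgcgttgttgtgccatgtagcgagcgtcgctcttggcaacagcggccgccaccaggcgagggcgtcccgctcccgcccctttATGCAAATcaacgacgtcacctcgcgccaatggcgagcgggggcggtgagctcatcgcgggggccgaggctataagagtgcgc
Plcb1, chr2:135092959-135093159: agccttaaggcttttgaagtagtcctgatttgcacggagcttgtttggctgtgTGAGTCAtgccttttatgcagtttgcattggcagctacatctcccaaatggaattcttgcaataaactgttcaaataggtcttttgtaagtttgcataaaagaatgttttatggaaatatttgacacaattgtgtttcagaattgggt
Smyd3, chr1:179223769-179223969: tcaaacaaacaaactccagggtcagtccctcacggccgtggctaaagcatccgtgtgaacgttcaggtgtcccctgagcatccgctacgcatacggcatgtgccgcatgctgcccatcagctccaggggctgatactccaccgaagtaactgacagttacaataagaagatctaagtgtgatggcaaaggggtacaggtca

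Shorter stretches around the match are given for further sites with a POU motif, to show the bases matched. The patterns searched for MORE and SoxOct allow more than 1 base at some positions, so that matches with 0 mismatches can differ from each other. Gnb1l and Smarca1 match the MORE pattern with 0 mismatches, Haao matches MORE+1 (MORE with 1 extra base in its middle) with 1 mismatch, Ctnna2 and Nrg3 match SoxOct with 2 mismatches, and Il3ra holds an octamer.
Gnb1l, chr16:18498338-18498367: ggacaagccATGCATATGCATgtgaggggc
Smarca1, chrX:47821161-47821190: tcatctgtcATGCATATTCATggattccct
Haao, chr17:83954627-83954655: tcaaggaaATGCATAATTCAAgaaccacc
Ctnna2, chr6:78066476-78066504: ttaactaCTTTCACATGCATATatgcatg
Nrg3, chr14:38321103-38321131: tagacagCATTGATATGGAAATgacagtg
Il3ra, chr14:14348447-14348476: catctgggtgtATGCAAATttggtccagca

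Sites bound at day 5 only were found at promoters more often than any of the other 3 classes. A transcription start lay within 1 kb of 298 of the 2410 sites, 12.4% (11.1 to 13.7), where 6.69% of all 13115 Oct4 sites had one. The share was 4.38% for day 1 only, 6.15% for day 7 only and 7.23% for day 5 and another day, so the day 5 only sites were higher by 7.99 points (6.61 to 9.45), 6.21 points (4.54 to 7.88) and 5.14 points (3.47 to 6.82). The remaining sites lay in introns (46.7%, 44.7 to 48.7), between genes (37.8%, 35.9 to 39.8) and in exons (3.15%, 2.53 to 3.93). The median distance to the nearest coding start was 37924 bp, and 28.8% of the sites were over 100 kb from one. The promoter excess over day 7 only sites and over sites of day 5 and another day was within counting error when lower scores were left out. For day 5 scores above the median the difference from sites seen on another day was 1.43 points (−0.929 to 4.08), and among summits scored at least 10 in every library it was 1.10 points (−1.21 to 3.60), with 2.03 points (−0.528 to 4.65) against day 7 only sites. Against day 1 only sites it was 5.58 points (3.70 to 7.81) at that score, still past counting error. For scores of at least 10, here and below, weaker summits were dropped before joining, so the classes were formed anew. The 805 day 5 only sites of that setting were therefore not all among the 2410. The same cut was used in each library, although scores depend on depth.

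The windows of the day 5 only sites were also the richest in CpG. A window was called CpG-rich when at least 50% of its 201 bases were G or C and CpG occurred at 0.6 or more of the rate its base composition predicts, a definition added after the data had been seen. It was met by 164 sites, 6.80% (5.87 to 7.88), where the rate over all Oct4 sites was 2.3%, and by 1.49% of windows 2 kb to either side of the day 5 only sites. The share was 0.900% at day 1 only, 0.946% at day 7 only and 2.50% at day 5 and another day, which left differences of 5.91 points (4.93 to 7.00), 5.86 points (4.79 to 6.99) and 4.30 points (3.13 to 5.51). These 3 differences stayed past counting error under each of the alternatives run for them, but for scores of at least 10 the last pair were 3.71 points (2.13 to 5.50) and 2.11 points (0.508 to 3.97). Within the highest of 4 bins of the day 5 score, the difference from sites of day 5 and another day was within counting error, at 3.03 points (−0.0538 to 7.73). Median GC content was 43.3%, against 37.3% at day 1 only, 41.8% at day 7 only and 40.8% at day 5 and another day.

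Most CpG-rich windows were promoters, 135 of the 164. Among promoter sites alone, 45.3% (39.8 to 51.0) of the day 5 only sites were CpG-rich, against 16.7% (12.6 to 21.7) at day 1 only, 7.69% (4.23 to 13.6) at day 7 only and 23.9% (18.2 to 30.7) at day 5 and another day. The kind of promoter thus differed as well as the number, by 28.6 points (21.1 to 35.6), 37.6 points (29.5 to 44.3) and 21.4 points (12.7 to 29.5). Over all summits of a library, both shares also went with the day. The promoter share was 8.02% to 11.9% in the 5 libraries of day 5 (9.78% for Oct4 in Oct4-SK), 4.01% to 6.39% in 6 of the 7 libraries of day 1 and 6.95% in the day 7 library, so the high share was common to the day 5 lists. The CpG-rich share was 4.01% to 6.35% in the 5 libraries of day 5 (4.56% for Oct4 in Oct4-SK), 0.489% to 1.73% in 6 of the 7 libraries of day 1 and 1.49% in the day 7 library. The exception for both was Oct6 M151S, a day 1 library by its title with the looser threshold, at 10.2% and 4.67%. Day and library cannot be told apart with 1 library per group.

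**Figure D1:**
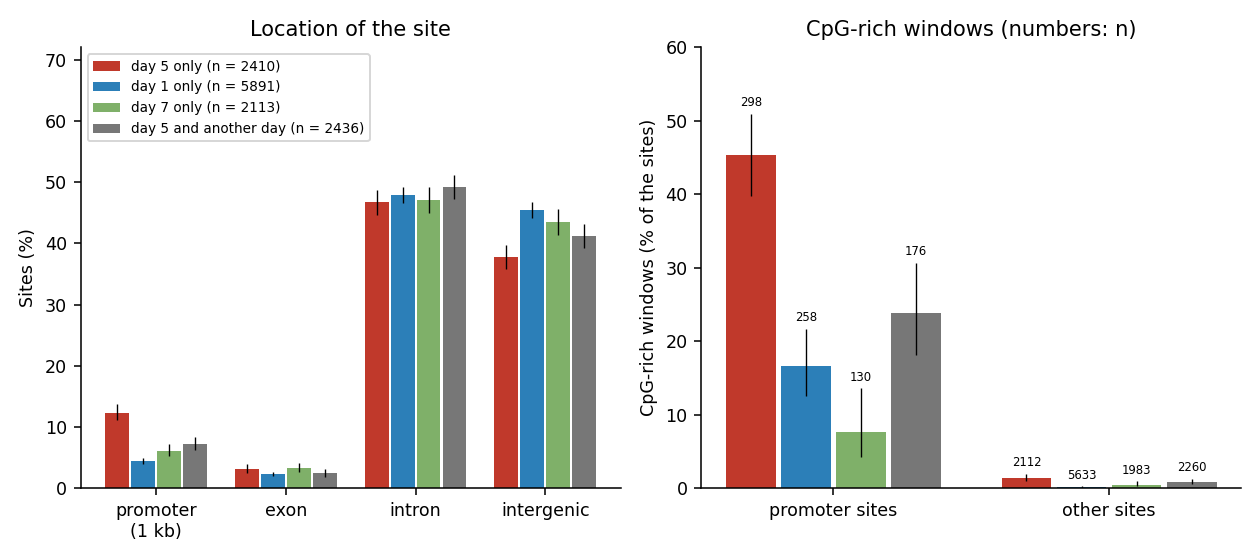
Location of Oct4 sites by the days on which they were bound. Left, percent of sites within 1 kb of a transcription start, in exons, in introns and between genes; right, percent of promoter sites and of other sites whose 201 bp window is CpG-rich, with the number of sites above each bar; error bars are 95% Wilson intervals. Day 5 only sites have the highest promoter bar (12.4%) and the highest CpG-rich share among promoters (45.3%).

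A POU motif was matched at 587 of the day 5 only sites, 24.4% (22.7 to 26.1), against 30.6% of all Oct4 sites. Matches were counted on both strands of the 201 bp window: SoxOct with up to 2 mismatches, MORE or MORE+1 with up to 1, and the octamer ATGCAAAT with 0, and an octamer may lie within a SoxOct match. The share was close to that of day 1 only sites (difference 0.948 points, −1.05 to 3.00), but the difference was −12.0 points (−14.7 to −9.36) from day 7 only sites and −23.3 points (−25.9 to −20.7) from sites bound on day 5 and another day. By this measure 1823 of the 2410 sites carried none of the 3 motifs.

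SoxOct was found at 287 sites, 11.9% (10.7 to 13.3), where all Oct4 sites reached 17.6% and the windows 2 kb away 1.02%. Day 7 only sites reached 28.2% and sites of day 5 and another day 27.7%, so that the day 5 only sites differed by −16.3 points (−18.6 to −14.0) and −15.8 points (−18 to −13.6). With the stricter match of 1 mismatch fewer these were −4.50 points (−5.77 to −3.28) and −4.16 points (−5.34 to −3.02), and for scores of at least 10 the former was −25.9 points (−30.0 to −21.6). The share of day 1 only sites was 11.2%, a difference of 0.688 points (−0.799 to 2.25) that was within counting error and passed it under 3 of the other settings, with 4.36 points (1.58 to 7.39) for summits scored at least 10. MORE was found at 212 sites, 8.80% (7.73 to 9.99), near the 9.1% of all Oct4 sites and above the 0.643% of the flanking windows. This was 4.68 points (3.26 to 6.10) more than at day 7 only sites, with 1.61 points (0.896 to 2.35) by the stricter match and 13.5 points (10.5 to 16.7) for scores of at least 10. The difference from sites of day 5 and another day was −8.40 points (−10.3 to −6.53). The latter was within counting error for day 5 scores above the median, at −2.45 points (−5.71 to 1.02). Against day 1 only sites it was 1.02 points (−0.260 to 2.39), and 5 of the other settings passed counting error, up to 8.36 points (5.61 to 11.4) for scores of at least 10.

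The octamer was matched at 189 sites, 7.84% (6.84 to 8.98), where 9.26% of all Oct4 sites had it and 1.62% of the flanking windows. SoxOct and MORE matches were more often near the summit than those of the flanking windows were near the window's centre: 47.4% of SoxOct and 44.8% of MORE matches were centred within 25 bp of it, against 16.3% of 49 and 19.4% of 31 matches in the flanking windows. The octamer did so in 33.9% of cases, against 23.1%.

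AP-1 (TGANTCA) was the most frequent motif searched, at 452 sites, 18.8% (17.3 to 20.4), with 16.6% over all Oct4 sites and 6.39% in the flanking windows. Day 7 only sites had it in 8.94% of cases, and the day 5 only sites exceeded them by 9.81 points (7.82 to 11.8). The differences from day 1 only sites (17.5%) and from sites of day 5 and another day (19.2%) were 1.31 points (−0.499 to 3.17) and −0.416 points (−2.62 to 1.79). AP-1 matches were spread over the window, with 29.4% centred within 25 bp of the summit against 26.0% in the flanks. The single Sox site CCATTGT occurred at 158 sites, 6.56% (5.64 to 7.61), against 7.5% of all Oct4 sites, and the KLF motif GGGNGTGGC at 59, 2.45% (1.90 to 3.14), against 1.71%. AP-1, Sox and KLF were searched after the data had been seen.

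**Figure D2:**
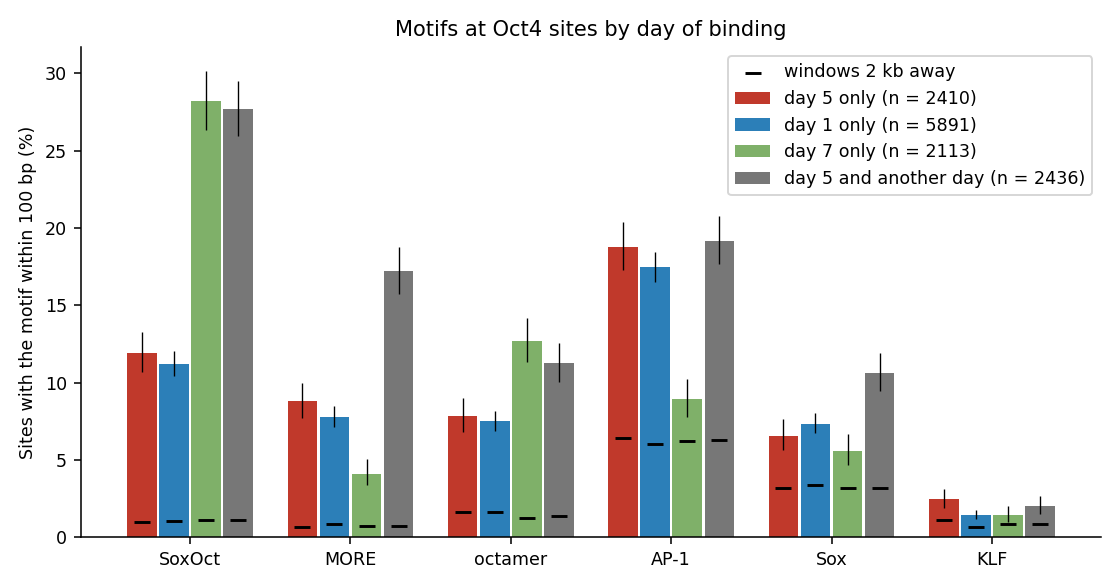
Percent of Oct4 sites with each motif within 100 bp of the site centre, by the days of binding; bars are shares with 95% Wilson intervals and black dashes are the shares in windows 2 kb to either side. Day 5 only sites and day 1 only sites have the low SoxOct shares (11.9% and 11.2%, against 28.2% and 27.7%), while AP-1 separates day 7 only sites (8.94%) from the rest.

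In the other Oct4-antibody libraries, the day 5 only sites stood between day 1 only and day 7 only sites at day 1, and above both at day 5. Oct4 S151M, which has the longest list, occupied 942 sites at day 1, 39.1% (37.2 to 41.1), where it occupied 63.3% of all Oct4 sites. It was found at 73.2% of day 1 only sites, 28.6% of day 7 only sites and 91.0% of sites of day 5 and another day. Oct4defSox2 occupied 760 sites at day 1, 31.5% (29.7 to 33.4), against 46.8% of all Oct4 sites. Its shares in the other classes were 48.2%, 19.2% and 80.1%, and the differences from them were −16.6 points (−18.9 to −14.4), 12.3 points (9.80 to 14.8) and −48.6 points (−51.0 to −46.1). For scores of at least 10 the first was −4.73 points (−8.54 to −0.886) and the second 21.04 points (16.5 to 25.5), and with equal numbers of Oct4 summits the second was 23.1 points (20.2 to 26.0). In total 1216 of the 2410 sites (50.5%, 48.5 to 52.5) had a summit of at least 1 of these mutants at day 1, below the 71.2% of all Oct4 sites, and 486 (20.2%) had both, where the share over all Oct4 sites was 38.9%. By the rule, wild-type Oct4 had no summit at the 2410 sites on that day.

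At day 5, Oct4defSox2 occupied 126 day 5 only sites, 5.23% (4.41 to 6.19), where all Oct4 sites stood at 4.47%. Day 1 only sites were occupied in 0.798% and day 7 only sites in 0.710% of cases, so that the day 5 only sites exceeded them by 4.43 points (3.57 to 5.41) and 4.52 points (3.58 to 5.52). For scores of at least 10 the former was 8.00 points (6.19 to 10.2). Sites of day 5 and another day were occupied in 16.1% of cases, a difference of −10.9 points (−12.6 to −9.20). The Oct4defSox2 list of day 5 was the shortest of all, and 12.2% of its summits lay at day 5 only sites. Of the 126 sites, 112 had also been occupied by Oct4defSox2 at day 1, which is 4.65% of the day 5 only sites, and 4.25% of all Oct4 sites were occupied by it on both days. Oct6 M151S occupied 56 sites, 2.32% (1.79 to 3.00), against 6.17% of all Oct4 sites and 8.13% of day 1 only sites, with a median score of 4.73 at the occupied sites.

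Sox2 was found at few of the day 5 only sites. In Oct4-SK cells it occupied 148 of them at day 1, 6.14% (5.25 to 7.17), where 14.7% of all Oct4 sites were occupied, and 118 at day 5, 4.90% (4.10 to 5.83), where 6.92% were. The paired difference of day 5 minus day 1 was −1.25 points (−2.41 to −0.0910), and 33 sites (1.37%) were occupied on both days, against 3.25% of all Oct4 sites. The day 1 list was the longer one, with 15222 summits against 5832. The sites occupied equalled 0.972% of the day 1 list and 2.04% of the day 5 list. With equal numbers of Oct4 summits and for day 5 scores above the median, the paired difference was no smaller. It was within counting error there, with fewer sites, and was 0.248 points (−1.36 to 1.87) for scores of at least 10. At day 1 the difference from day 1 only sites was −13.2 points (−14.6 to −11.8) and from day 7 only sites 2.69 points (1.44 to 3.93). The former was −6.23 points (−7.33 to −5.07) with a distance of 50 bp, and the latter was within counting error for scores of at least 10, at 0.380 points (−1.22 to 2.04). At day 5 Sox2 occupancy differed from day 1 only sites by 0.652 points (−0.309 to 1.71) and from day 7 only sites by 0.353 points (−0.902 to 1.59), but by −11.0 points (−12.7 to −9.31) from sites bound on day 5 and another day, at 15.9%.

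Among the Sox2 libraries, Oct4defSox2-SK cells at day 5 covered the most, 198 sites or 8.22% (7.18 to 9.38), where 6.58% of all Oct4 sites were covered. The paired difference of Sox2 at day 5, Oct4-SK minus Oct4defSox2-SK, was −3.32 points (−4.45 to −2.22), and 64 sites (2.66%) were occupied in both, against 2.71% of all Oct4 sites. This difference was −5.79 points (−7.18 to −4.43) with a distance of 250 bp, −1.59 points (−2.53 to −0.663) with 50 bp and −1.62 points (−3.29 to −0.0276) for scores of at least 10. The Sox2 list of Oct4defSox2-SK cells at day 5 was the longer one, with 21563 summits against 5832. At day 1 the same cocktail covered 57 sites, 2.37% (1.83 to 3.05), against 4.05% of all Oct4 sites. Sox2 in Oct6-SK cells covered 24 sites at day 1, 0.996% (0.670 to 1.48), against 3.56%, and 70 at day 5, 2.90% (2.31 to 3.65), against 3.46%. Any Sox2 library of day 5 covered 271 sites (11.2%), where 11.8% of all Oct4 sites were covered, and all 3 covered 24 (0.996%), where 1.18% were.

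**Figure D3:**
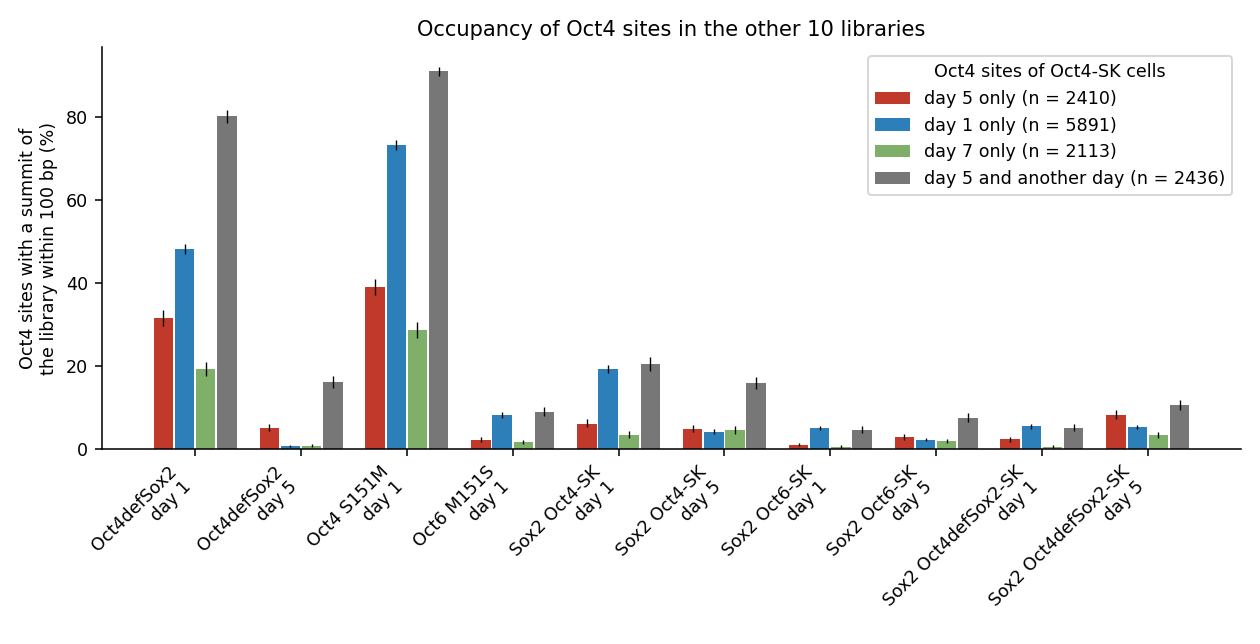
Percent of Oct4 sites with a summit of each of the other 10 libraries within 100 bp, by the days of binding in Oct4-SK cells; error bars are 95% Wilson intervals and n is the number of sites. Day 5 only sites lie between day 1 only and day 7 only sites for Oct4defSox2 (31.5%) and Oct4 S151M (39.1%) at day 1, and exceed both for Oct4defSox2 at day 5 (5.23%). Sites of day 5 and another day stand higher there, at 16.1%.

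No summit of the other 10 libraries was found at 1040 of the day 5 only sites, 43.2% (41.2 to 45.1), where 25.4% of all Oct4 sites had none. The share was 15.0% at day 1 only, 61.3% at day 7 only and 3.78% at day 5 and another day. A further 670 sites were occupied in 1 library, 425 in 2 and 183 in 3, and 6 sites were occupied in 7 or 8. Of the 2410 sites, 971 (40.3%) had a mutant Oct4 summit and no Sox2, 254 (10.5%) had both, and 127 (5.27%) had Sox2 and no mutant Oct4. Over all Oct4 sites these shares were 50.9%, 20.4% and 2.87%. In each of the 10 libraries, the median score at the sites it covered was above the median of its own list. The median score was 28.0 for Oct4 S151M, above 63.7% of its list, 17.4 for Oct4defSox2 at day 1, above 71.7%, and 14.0 for Sox2 in Oct4defSox2-SK at day 5, above 75.1%.

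Among the day 5 only sites, occupancy by the Oct4 mutants differed with the motif in the window. Other Oct4 sites were not split by motif, so this is not shown to be particular to the day 5 only sites. The paper reports a raised preference of Oct4 S151M for MORE. It also reports that by day 5 Oct4defSox2 was lost from SoxOct sites held by Oct4 and kept some binding at MORE sites. Of the 193 sites with MORE and no SoxOct, 94.8% (90.7 to 97.2) were occupied by Oct4 S151M, 57.5% (50.5 to 64.3) by Oct4defSox2 at day 1 and 22.3% (17.0 to 28.7) by Oct4defSox2 at day 5. Of the 268 sites with SoxOct and no MORE, the shares were 55.6% (49.6 to 61.4), 35.4% (30.0 to 41.3) and 1.12% (0.381 to 3.24). The MORE sites were higher by 39.2 points (32.1 to 45.7), 22.1 points (12.9 to 30.8) and 21.2 points (15.5 to 27.6), and the last of these stayed past counting error under each alternative run. At day 5 Oct4defSox2 had a summit at 3 of the SoxOct sites. Of all 10 libraries, none had a summit at 6 of the 193 MORE sites, against 89 of the 268 SoxOct sites and 908 of the 1823 sites without a POU motif. The median day 5 scores of these groups also differed, at 10.27, 8.1 and 6.70. The share of day 5 only sites without another library was 59% in score bin 1 and 11.05% in bin 4.

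Sox2 was not more frequent at the sites with SoxOct. Sox2 of Oct4-SK cells at day 5 occupied 10 of the 268 SoxOct sites, 3.73% (2.04 to 6.73), and 103 of the 1823 sites without a POU motif, 5.65% (4.68 to 6.81), a difference of −1.92 points (−3.97 to 1.23). For day 5 scores above the median it was −6.35 points (−9.24 to −1.85). In Oct4defSox2-SK cells at day 5 SoxOct sites and sites without a POU motif had shares of 2.61% and 9.98%, a difference of −7.37 points (−9.36 to −4.40). At day 1 in these cells 0 of the 268 were occupied, with a Wilson upper bound of 1.41%. Sites with AP-1 had more Sox2 in the Oct4-SK and Oct4defSox2-SK cells, and 14.8% (11.8 to 18.4) of 452 were occupied by Sox2 of Oct4defSox2-SK cells at day 5, 8.13 points (4.92 to 11.9) more than sites without AP-1. For Sox2 of Oct4-SK cells, sites with AP-1 exceeded the others by 3.23 points (0.920 to 6.15) on day 5. On day 1 they exceeded them by 3.33 points (0.799 to 6.45), and in Oct4defSox2-SK cells by 1.72 points (0.141 to 3.96). In Oct6-SK cells the difference was within counting error, at 0.680 points (−0.270 to 2.33) on day 1 and 1.33 points (−0.333 to 3.64) on day 5. Sites with AP-1 also had more Oct4defSox2 at day 1, 40.5% against 29.5%, and fewer without any other library, 29.4% against 46.3%.

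**Figure D4:**
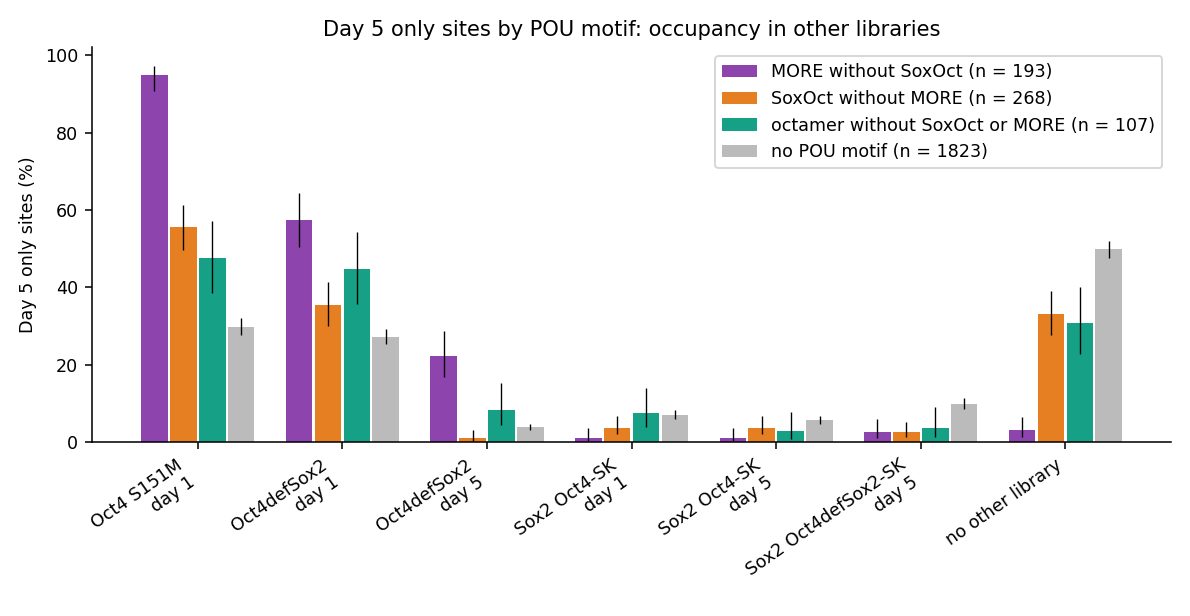
Percent of day 5 only sites occupied in other libraries, or in none of them, by the POU motif of their window; error bars are 95% Wilson intervals and n is the number of sites. MORE sites were nearly all occupied by Oct4 S151M (94.8%), and Oct4defSox2 at day 5 was at 22.3% of them and at 1.12% of SoxOct sites. Other Oct4 sites were not split by motif.

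Promoter sites had less Oct4 S151M than the others, at 28.9% (24.0 to 34.3) of 298 against 40.5% (38.5 to 42.6) of 2112, a difference of −11.7 points (−17.0 to −5.90). For scores of at least 10 and for day 5 scores above the median it stayed negative but was within counting error, with fewer sites. Oct4defSox2 at day 1 differed by −2.67 points (−7.94 to 3.07) and Sox2 of Oct4-SK at day 5 by 0.540 points (−1.73 to 3.82). Among the CpG-rich promoters, 10 of 135 held a POU motif (7.41%, 4.07 to 13.1), and 83 (61.5%, 53.1 to 69.3) had no summit in any other library. Oct4 S151M occupied 13.3% of them, a difference of −28.4 points (−37.4 to −18.4) from the promoters that were not CpG-rich, and Oct4defSox2 at day 1 occupied 22.2%, a difference of −12.7 points (−22.5 to −2.39). Oct6 M151S differed the other way, by 5.57 points (0.783 to 11.4), at 7.41% (4.07 to 13.1) of CpG-rich and 1.84% (0.628 to 5.27) of other promoters.

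Because day 5 only sites had low scores, they were also compared with the day 5 sites of another day within each of the 4 score bins. Oct4 S151M occupancy of day 5 only sites was 23.2% (20.7 to 26.0) of 961 in bin 1, then 38.5% and 56.4%, and 75.1% (68.4 to 80.9) of 181 in bin 4. In sites seen on another day it was 83.8%, 86.1%, 89.5% and 95.6%. The difference was −60.6 points (−65.5 to −54.7) in bin 1 and −20.5 points (−27.4 to −14.6) in bin 4, so it was smaller at high scores and still past counting error. SoxOct was lower in all 4 bins, by −15.2 points (−21.1 to −9.96) in bin 1 and −10.6 points (−16.4 to −3.68) in bin 4. MORE went from 2.81% to 28.2% of day 5 only sites, and its difference was within counting error in bins 2 to 4, at 3.46 points (−3.16 to 10.9) in bin 4. Oct4defSox2 at day 5 was within counting error in each of the 4 bins, with 24.3% (18.6 to 31.1) against 28.4% (25.8 to 31.2) in bin 4, although its difference over all scores was −10.9 points (−12.6 to −9.20). Sox2 of Oct4-SK cells at day 5 was lower in all 4 bins, by −14.4 points (−17.2 to −10.2) in bin 4. CpG-rich windows were more frequent in bins 1 to 3, by 6.09 points (2.92 to 8.36) in bin 1, and the difference in bin 4 was within counting error.

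**Figure D5:**
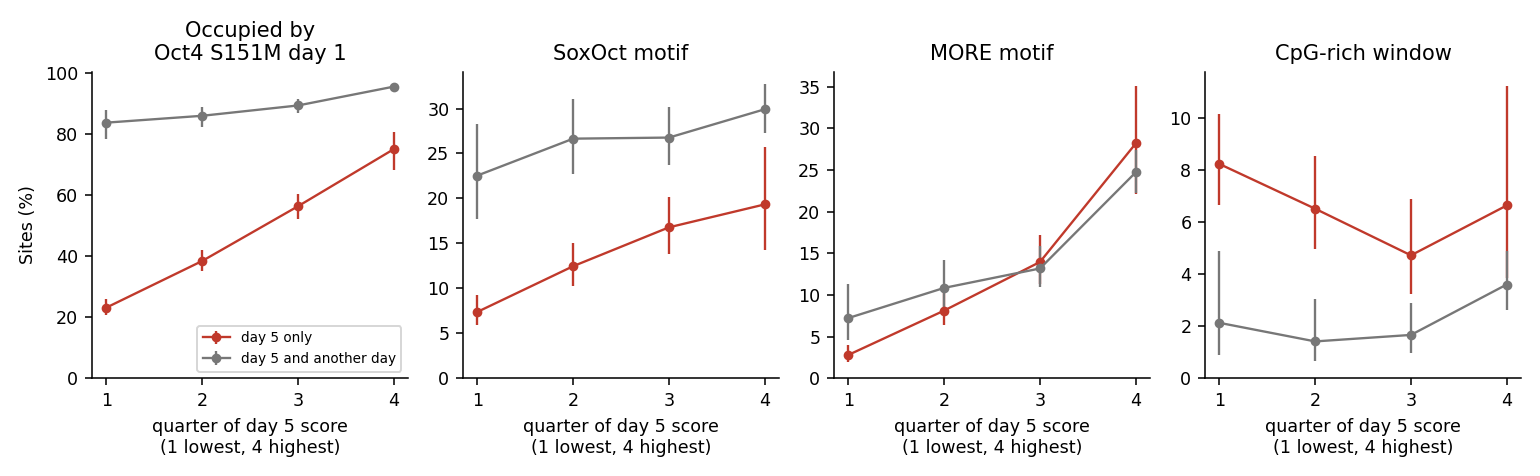
Percent of sites occupied by Oct4 S151M, with a SoxOct or MORE motif, or with a CpG-rich window, in 4 bins of the day 5 score cut at its quartiles over all day 5 sites; points are shares, bars are 95% Wilson intervals, red is day 5 only and grey is day 5 and another day. The classes differ in Oct4 S151M and SoxOct in each bin, and their MORE shares differ past counting error in bin 1 alone.

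The 4 highest scored sites were of different kinds. The first, with a day 5 score of 55.8, lay 141 bp upstream of Cryba2, which encodes a beta crystallin of the eye lens, at chr1:74893184-74893384, and was also bound by Oct4 S151M (163). The second (44.4) lay 607564 bp from Frk, a Src-family kinase gene, in intergenic DNA with a SoxOct match, and was bound by Oct4defSox2 at day 1 (29.7) and day 5 (13.6) and by Oct4 S151M (61.1). The third (43.2) was the MORE site in an intron of Atp2b4, a plasma membrane calcium pump, with scores of 18.3, 36.3 and 282 in the same 3 libraries. The fourth (39.8) was in an intron of Mmp1a, 24609 bp from Mmp3, a matrix metalloproteinase like it, held no motif searched, and scored 80.1, 10.3 and 13.6. Each had at least 1 mutant Oct4 summit and none had Sox2. A mutant Oct4 summit was at 50.8% of day 5 only sites and 71.3% of all Oct4 sites, and Sox2 at 15.8% and 23.25%. In the highest score bin Oct4 S151M alone was at 75.1% of day 5 only sites.

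The next sites were chosen by score among those with each POU motif, leaving out sites already described. Of the SoxOct sites, the one nearest Nrg3 (28.9), 1151685 bp away in an intron of the noncoding gene Gm31456, had Oct4 S151M (10.7) and Sox2 of Oct4-SK at day 5 (7.09), and the one 86796 bp from Ctnna2 (28.9), an alpha catenin gene, had Oct4defSox2 at day 1 (13.7) and Oct4 S151M (380). The MORE site 779 bp into the olfactory receptor gene Olfr1212 (35.7) and the MORE site in an intron of Adam23 (33.1) were both bound by Oct4defSox2 at day 1 (9.43 and 29.6) and Oct4 S151M (31.4 and 803), and Adam23 also by Oct4defSox2 at day 5 (9.54). Of the octamer sites, the one in an intron of Dnah8 (31.3), a dynein heavy chain gene, had only Oct4defSox2 at day 5 (6.46). Repeats covered 62.7% of its window. The octamer of Jund, which encodes a Jun protein of AP-1, lay close to its summit 129 bp upstream of the start (28.9). It was bound by Oct4defSox2 at day 1 (94.7) and day 5 (23.7), by Oct4 S151M (54.3) and by Sox2 of Oct4defSox2-SK at day 5 (10.1).

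At coding promoters, the next in rank were Gnb1l (21.6), 352 bp upstream with a MORE match of 0 mismatches, bound by Oct4defSox2 at day 1 (25.4) and Oct4 S151M (1089), and Ntmt1 (20.0), an N-terminal methyltransferase gene, 20 bp upstream and bound by Oct4defSox2 at day 1 (30.6). Beside that nearest Nrg3, sites with Sox2 of Oct4-SK at day 5 included the one nearest Gm8797 on chromosome 3 (17.8), where Sox2 scored 52.4. Another lay 70827 bp from Lpin1 (15.3), a phosphatidate phosphatase gene, where it scored 5.54. At the former, Sox2 was also found in Oct4-SK at day 1 (34.5) and in Oct4defSox2-SK at day 5 (80.9), and Oct4defSox2 at day 1 (21.3). The latter also had Oct4defSox2 at day 1 (15.2), Oct4 S151M (11) and Sox2 of Oct4-SK at day 1 (8.23). Oct4defSox2 at day 5 was at the MORE sites in an intron of Smarca1 (32.0), a chromatin remodelling ATPase gene, and 107822 bp from Haao (28.7), with scores of 18 and 20.9, and the same factor was there at day 1 (103 and 67.9).

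Of the 3 sites occupied in 8 other libraries, the one 68868 bp from St3gal1 (9.46) had Sox2 in all 6 Sox2 libraries, with scores of 13.0 to 92.3, and the one in an intron of Plcb1 (8.87) had 4 of them, up to 54.7 in Oct4defSox2-SK at day 5. Their day 5 Oct4 scores were above the median of the day 5 only sites (7.29). The highest scored sites found in no other library were in introns of Smyd3 (31.7), a histone methyltransferase gene, and Il3ra (21.6), the interleukin 3 receptor alpha chain.

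The 2410 sites had 1999 nearest coding genes, 1690 of them with a single site. Il3ra was 1 of 8 genes with 5 or 6, and its 5 sites lay within 5938 bp on chromosome 14, from 14348425 to 14354363. All 5 held the octamer, and so did all 13 Oct4 sites of any class within 10 kb of them, of which 3 were bound at day 1 only, 2 at day 7 only and 3 at day 5 and another day. At the other 7 genes the sites were spread over 397845 to 1738418 bp, with 0 to 4 octamers among 6 to 22 Oct4 sites. These were Dpp6 and Tbl1xr1 with 6 sites, and Epha7, Inhba, Myc, Sel1l and Zeb2 with 5. Of the Dpp6 sites, 1 scored 35.7. The Myc gene, a proliferation factor and itself a reprogramming factor in other cocktails, had 2 sites 324 and 717 bp downstream of its start (9.58 and 16), with Sox2 of Oct4-SK at day 5 (6.17) at the first and no other library at the second.

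Coding promoters within 1 kb numbered 230, of 224 genes, with the summit upstream of the start at 134 and downstream or at it at 96. After Cryba2, Olfr1212, Jund, Gnb1l and Ntmt1, the next 9 by score were Mepce (19.1), Pkm (18.9), which encodes the glycolytic enzyme pyruvate kinase, Cbx8 (16.2), a Polycomb component, Nras (16.2), a small GTPase, Lipg (16.2), Myc (16), Sox4, Rras2 and Hist1h2ac (each 15.3), named after their values had been seen. Oct4defSox2 at day 1 was at all of these but Myc, with scores from 7.87 at Sox4 to 85.2 at Pkm. Its share was 29.2% (24.3 to 34.6) of all 298 promoter sites and 65.7% (58.6 to 72.3) of the 181 day 5 only sites in the highest score bin, in which all 9 fall. At day 5 it had a score of 43.1 at Pkm, 9.54 at Cbx8 and Lipg and 7.99 at Rras2, and its shares were 5.37% (3.33 to 8.54) of the 298 and 24.3% (18.6 to 31.1) of the 181. Oct4 S151M was at Mepce (145), Nras (18.4), Lipg (25.8), Rras2 (771) and Hist1h2ac (13.7), with shares of 28.9% of the 298 and 75.1% of the 181. Oct6 M151S was at Mepce, Pkm, Cbx8 and Hist1h2ac, and at 4.36% of the 298.

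Of 21911 coding genes, 2550 (11.6%) had a day 5 only site within 50 kb of a start, and gene lists for the tissues at stake were read against that share. Among 28 naive pluripotency genes 4 did: Fgf4, a growth factor of the early embryo (2600 bp, score 5.39), Tet1, a DNA demethylase (2524 bp, 5.39), Gbx2 (11821 bp, 4.75) and Tbx3 (47605 bp, 7.39), both homeobox or T-box regulators. Only the Gbx2 site had a POU motif, SoxOct, and another library, Oct4 S151M (58.4). Of 32 mesenchymal and fibroblast genes 6 had one: Cdh2, the N-cadherin gene (33801 bp, 11.9), Zeb2, a repressor of epithelial genes (46476 bp, 9.58), Prrx1 (14220 bp, 6.70), the matrix gene Postn (33922 bp, 6.03), the collagen gene Col1a2 (38519 bp, 4.19) and the collagen cross-linking enzyme gene Lox (29279 bp, 4.16). Of these only Cdh2 and Zeb2 were occupied in another library, Cdh2 by Oct4defSox2 at day 1 with a score of 60.1.

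Of 16 AP-1 and TEAD genes 3 had a site: Jund (above), Junb (194 bp upstream, 4.78, no other library) and Fosl2 (46115 bp, 7.39). Among the epithelial genes, Rab25 had a SoxOct site at 16664 bp (11.8) and another site at 27375 bp (5.39), and the desmosome gene Dsp had a site at 11570 bp (4.78). The SoxOct site lay 759 bp upstream of its nearest coding start, that of Mex3a, in a CpG-rich window. Of 31 chromatin regulators 2 had one, Smarcc1 (2606 bp upstream, 12.8, a MORE site with Oct4 S151M at 61.2) and Kdm4a (391 bp upstream, 6.41, Oct4defSox2 at 52.4 and 10.5 at days 1 and 5). Of 18 extraembryonic genes only Cdx2 had one (7978 bp, 6.61), and of 17 neural genes only Sox21 (15960 bp, 5.39), both without another library. No list was tested.

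The replication-dependent histone genes had the highest share, 27 of 67 (40.3%), but the genes are clustered and share their sites: only 3 sites were involved. The strongest lay 102 bp upstream of Hist1h2ac (15.3), held an octamer, an element known from H2B promoters, and was bound by Oct4defSox2 at day 1 (34.3), Oct4 S151M (13.7) and Oct6 M151S (5.31). The other sites scored 4.78, among Hist1 genes with SoxOct and octamer matches, and 5.27, among Hist2 genes without a motif searched. Histone genes near day 1 only sites numbered 44 of 67 and near day 7 only sites 33, both above the 27 of day 5 only sites, while those near sites of day 5 and another day numbered 4. Over all coding genes the shares near these 3 classes were 16.7%, 9.005% and 10.2%.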

How the data were processed

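Summit lists of 13 ChIP-seq libraries were used (antibodies to Oct4, Oct6 or Sox2), and 3 input libraries were not analysed here. The authors aligned reads to mm10 with Bowtie2 (2.2.5, per the submitters' processing notes), removed low-quality and duplicate reads with SAMtools and called summits per library with MACS2. The deposited score of a summit is the −log10 of its MACS2 p-value. Whether an input served as control is not given in the sources used here. The members, gene lists and tests were chosen with earlier results of these data known, and the AP-1, Sox, KLF and CpG-rich comparisons after the data had been seen.

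Sites were merged within 100 bp, and another library occupied a site when its summit lay within 100 bp. Motifs, GC content and CpG were read in 201 bp windows of GRCm38, and genes from GENCODE M21 basic. Shares carry Wilson and differences Newcombe intervals (the paired form for the same sites), without adjustment for the number compared. Past counting error means that an interval excludes 0. Depth is known here only as summits per library. Named sites were those ranking highest by day 5 score overall and by motif, promoter, co-occupancy and number of other libraries. Names also went to list genes within 50 kb of a site and to the genes nearest to the most sites, ties included. Scripts ran in Python 3.11.15 with pysam 0.24.0 and were tested on simulated data, where all 3000 planted sites were classed correctly. Alternatives changed the merging distance, score minimum, number of summits, summits per peak, repeat content, motif match, motif window and promoter distance. A changed merging distance, score minimum, number of summits or summits per peak also formed the classes anew. Part of the result for the epithelial gene list is not reported here.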

Additional observations from a re-analysis of the deposited data

How the results depend on the processing

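Of 271 recomputed values over 38 differences, 236 kept their direction and their side of counting error, and 23 differences did so under every alternative run. The number of sites stayed within 1.5 times of 2410 in 5 of 6 settings, and with summits scored at least 10 it was 805. Values below are day 5 only minus the named class, in points, and the causes were not tested. For Sox2 of Oct4-SK at day 5, a distance of 250 bp gave 1.61 (day 1 only) and 1.56 (day 7 only), and scores of at least 10 gave −0.772 and −0.730. SoxOct against day 1 only was 1.46 at 50 bp, 4.36 at scores of at least 10 and 1.23 with the stricter match. MORE against day 1 only was 1.32, 8.36 and 1.45 under the same settings, 2.92 with equal summit numbers and 1.18 in the 50 bp window. AP-1 against day 1 only was 3.01 with equal summit numbers and 1.62 in the 50 bp window. Scores of at least 10 gave 0.380 for Sox2 of Oct4-SK at day 1 and 2.03 for promoters against day 7 only. Against day 5 and another day they gave −2.34 for MORE, 1.10 for promoters and 1.63 for AP-1, and scores above the median gave −2.45, 1.43 and 0.923. AP-1 there was 1.47 with equal summit numbers and 0.117 in the 50 bp window. Within the sites, Sox2 of Oct4-SK at day 5 minus day 1 was 0.248 for scores of at least 10, −1.48 with equal summit numbers and −1.41 above the median, and Sox2 at SoxOct minus no POU motif was −6.35 above the median. Promoter minus other sites was −0.429 (50 bp) and −0.453 (scores of at least 10) for Sox2 of Oct4-SK at day 5. For Oct4defSox2 at day 1 it was 7.34 (scores of at least 10), 0.446 (equal summit numbers) and 5.81 (above the median), and for Oct4 S151M −10.9 (scores of at least 10) and −8.22 (above the median). Of the values that kept both, 34 over 20 differences past counting error moved by over 1.5 times. With scores of at least 10, Oct4 S151M was −20.0 (day 1 only), 23.8 (day 7 only) and −29.6 (day 5 and another day), Oct4defSox2 at day 5 was 8.00 and 8.37 against day 1 only and day 7 only, MORE against day 7 only 13.5, and CpG-rich windows 3.71 against day 7 only and 2.11 against day 5 and another day. The stricter match gave 1.61 for MORE against day 7 only and −2.73 against day 5 and another day. A distance of 50 bp gave −6.23 and −8.18 for Sox2 of Oct4-SK at day 1 against day 1 only and day 5 and another day, and for Sox2 at day 5, Oct4-SK minus Oct4defSox2-SK, values ran from −5.79 at 250 bp to −1.59 at 50 bp. No paired analysis was possible because each group was 1 library without a replicate number, and the paired differences in the text are over sites, not samples. Depth limits absence: a site without a summit may still be bound below the threshold of that library.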

Other observations

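Chromosome X held 27 of the 2410 sites bound at day 5 only, 1.12% (0.771 to 1.63), against 1.90% (1.58 to 2.28) of day 1 only sites, 2.13% (1.60 to 2.84) of day 7 only sites and 1.35% (0.966 to 1.90) of sites bound at day 5 and another day. The median gap from a day 5 only site to the nearest other Oct4 site was 44866 bp, and 23.3% of the sites had one within 10 kb, where the other classes had 22.4% to 24.3%. Repeats covered over 50% of the window at 12.4% (11.1 to 13.8) of the day 5 only sites, against 12.1% at day 1 only, 12.8% at day 7 only and 10.8% at day 5 and another day.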
